A study of Mus musculus with 7 samples.

Results

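Small nuclear and nucleolar RNAs were taken from a count table of mouse hippocampus as the genes that GENCODE M21 types as snoRNA (small nucleolar RNA), snRNA (small nuclear RNA) or scaRNA (small Cajal body RNA) and that held a summed raw count of at least 20 over the 7 libraries. The rule gave 160 genes of the 39017 in the table, 107 snoRNAs, 49 snRNAs and 4 scaRNAs. The table has 2907 genes of these types, of which 1829 had no count in any library and 918 had a summed count of 1 to 19. At the edge of the rule, 7 members had a summed count of 20 (together 41 bound and 99 unbound counts) and 10 genes just outside had 19 (together 22 bound and 168 unbound counts). By symbol, 18 members belong to the Snora family, 23 to Snord, 1 to Scarna and 6 to Rnu, and 112 carry another name.

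The method was TRAP (translating ribosome affinity purification): ribosomal protein L10 fused to EGFP is captured together with the RNA on its ribosomes. Every mouse carried both the Gad2-driven Cre and the L10-EGFP allele, and each sample pooled 2 hippocampi. There were 3 bound libraries, with the captured RNA, and 4 unbound ones. The bound titles share the prefix GAD_ctrl, and the unbound titles form a UBS series of 2 libraries (unbound replicates 1 and 2) and a UBGS series of 2 (replicates 3 and 4), none of which the labels explain. No label gives the mice's age or sex, a batch, or whether bound and unbound RNA came from the same tissue. P-values therefore measure the spread between these libraries, which may be technical. In such bulk RNA, fewer cells of a type and less RNA per cell cannot be told apart.

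Box C/D snoRNAs guide methylation of the ribose in rRNA and box H/ACA snoRNAs guide pseudouridylation, while a few, such as U3 and U8, are needed for cutting the rRNA precursor. ScaRNAs guide the same modifications on snRNAs in Cajal bodies, and the snRNAs U1, U2 and U6 are the catalytic and recognition core of the spliceosome. Most vertebrate snoRNAs are cut out of introns of host genes, and none of these RNAs is translated.

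The sequences below show the members on which the results turn, read from the GENCODE M21 transcripts (GRCm38, the mm10 assembly) as DNA letters from 5′ to 3′. Rnu3b2 is a copy of U3 at chr11:87471368-87471582 (+ strand, an intron of Tex14), and Snord118, or U8, lies at chr11:69073427-69073561 (+) in no host gene. Snord78 (chr1:161036984-161037049, +), Gm23212 (chr1:161036682-161036741, +) and Gm26224 (chr1:161035394-161035473, +) lie in Gas5, and Gm24564 (chr12:109631074-109631148, +), Gm24895 (chr12:109646129-109646202, +) and AF357425 (chr12:109636012-109636084, +) lie in the imprinted noncoding gene Rian. Snord91a is at chr11:74905424-74905516 (+) in an intron of Tsr1. Snora61 (chr4:132310240-132310369, +, in Snhg12) and Snora35 (chrX:146994381-146994508, +, an intron of Htr2c) are box H/ACA snoRNAs, and Rnu2-10 (chr11:101658238-101658428, +) is a copy of U2. Capitals mark the C box letters TGATG, with a further A in U3 and U8, and the D box letters CTGA. In Snora61 and Snora35 they mark the H box letters ANANNA and the final ACA. Neither set of letters was found in Rnu2-10 by the search given below.
Rnu3b2: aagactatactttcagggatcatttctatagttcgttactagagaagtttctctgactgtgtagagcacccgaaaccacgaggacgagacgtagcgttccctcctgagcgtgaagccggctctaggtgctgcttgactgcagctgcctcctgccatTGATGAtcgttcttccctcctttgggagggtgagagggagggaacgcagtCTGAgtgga
Snord118: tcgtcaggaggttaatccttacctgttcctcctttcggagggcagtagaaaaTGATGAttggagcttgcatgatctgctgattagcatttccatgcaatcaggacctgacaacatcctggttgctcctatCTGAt
Snord78: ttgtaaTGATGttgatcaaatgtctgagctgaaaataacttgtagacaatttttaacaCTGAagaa
Gm23212: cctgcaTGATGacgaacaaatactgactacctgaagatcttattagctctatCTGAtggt
Gm26224: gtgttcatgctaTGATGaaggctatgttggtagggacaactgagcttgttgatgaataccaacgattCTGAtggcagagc
Gm24564: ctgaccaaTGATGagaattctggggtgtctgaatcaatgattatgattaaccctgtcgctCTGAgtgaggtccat
Gm24895: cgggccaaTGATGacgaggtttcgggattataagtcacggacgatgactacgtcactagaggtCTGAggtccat
AF357425: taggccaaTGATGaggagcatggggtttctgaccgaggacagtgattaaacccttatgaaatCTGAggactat
Snord91a: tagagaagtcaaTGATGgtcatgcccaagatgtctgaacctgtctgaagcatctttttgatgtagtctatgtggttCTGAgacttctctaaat
Snora61: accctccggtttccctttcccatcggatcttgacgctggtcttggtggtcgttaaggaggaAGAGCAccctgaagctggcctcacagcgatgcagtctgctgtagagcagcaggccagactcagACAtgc
Snora35: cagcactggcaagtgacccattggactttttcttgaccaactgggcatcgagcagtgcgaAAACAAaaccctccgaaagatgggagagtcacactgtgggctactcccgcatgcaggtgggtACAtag
Rnu2-10: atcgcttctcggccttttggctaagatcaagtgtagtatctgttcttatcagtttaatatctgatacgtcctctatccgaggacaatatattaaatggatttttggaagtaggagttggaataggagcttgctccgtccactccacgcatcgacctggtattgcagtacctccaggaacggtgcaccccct

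Library totals ranged from 38690380 to 51953811 counts, of which the members took 945, 1199 and 985 in the 3 bound libraries, in order of replicate, and 2448, 2912, 3302 and 3138 in the 4 unbound ones. Between 68 and 88 members had a count in a bound library and between 147 and 158 in an unbound one. Values are given as counts or as CPM (counts scaled to the TMM-scaled library size), and with a median of 42 counts per member the counting error is large. Mitochondria-encoded genes took 0.0867% to 0.123% of the bound and 28.5% to 32.9% of the unbound counts, and Gm42418, which overlaps ribosomal RNA, took 11.3% to 15.4% and 3.95% to 6.02%. The markers went with the labels: Gad1, Gad2 and Slc32a1 were all higher in bound libraries, and 3 of 3 excitatory neuron markers, 3 of 3 oligodendrocyte markers and 2 of 3 astrocyte markers were lower. The 4 microglia markers were higher, with summed levels of 149.9, 374 and 122 CPM in bound replicates 1 to 3 and 45.9 to 65.1 CPM in unbound libraries.

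As a class these RNAs were scarce in the ribosome-bound libraries. The members summed to 16.2, 19.2 and 22.4 CPM in the bound libraries (mean 19.3 ± 3.08, SD, n = 3) and to 71.7, 68.0, 77.5 and 77.4 CPM in the unbound libraries (73.7 ± 4.67, n = 4), 3.83-fold lower in bound, with no overlap between the groups. By edgeR's quasi-likelihood test, adjusted by the Benjamini-Hochberg method over 22111 genes at a threshold of 0.05, 94 of the 160 members were lower in bound, 2 were higher and 64 were not called. Of all genes tested, 57.1% were called, 29.2% lower and 28.0% higher. The median log2 fold change (bound minus unbound) over the members was -3.06, or -2.86 with members at 0 set to their bound, against -0.03 over all genes tested. In 97 members every unbound library lay above every bound one, which held for 30.4% of all genes, and in 4 members every bound library lay above, which held for 29.0%. There were 42 members with no count in any bound library, against 1.76% of all genes tested, which were not matched to the members on count. These 42 members met the rule through unbound counts alone, so that their low bound values depend in part on the rule. They enter the calls and medians given here. With library totals in place of TMM scaling, which moved the median of all genes to 0.40, 82 members remained lower and 4 were higher.

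In the Snora, Snord and Rnu families and among the members with other names, every bound library had a lower sum than every unbound one. The Snora family summed to 2.55, 2.997 and 3.41 CPM in bound replicates 1 to 3 and to 8.15, 7.19, 9.16 and 9.72 CPM in unbound replicates 1 to 4. The Snord family summed to 2.84, 4.31 and 3.09 CPM in bound and 11.9, 13.7, 12.3 and 12.7 CPM in unbound libraries. The Rnu family, which holds the U3 copies, summed to 0.103, 0.128 and 0.204 CPM against 3.55, 5.998, 5.19 and 4.89 CPM. The ratio of means was 2.87-fold lower for Snora, 3.70-fold for Snord and 33.8-fold for Rnu, in this order of family. The Rnu ratio came from the 4 U3 copies, which made up 4.76 of the mean 4.90 CPM in unbound libraries and had no bound count. The other Rnu members, Rnu2-10 and Rnu7, are snRNAs and did not pass the test described above. Members with other names summed to 12.7 ± 2.61 CPM (SD, n = 3) in bound and 47.4 ± 4.38 CPM (n = 4) in unbound libraries, 3.73-fold lower.

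**Figure D1:**
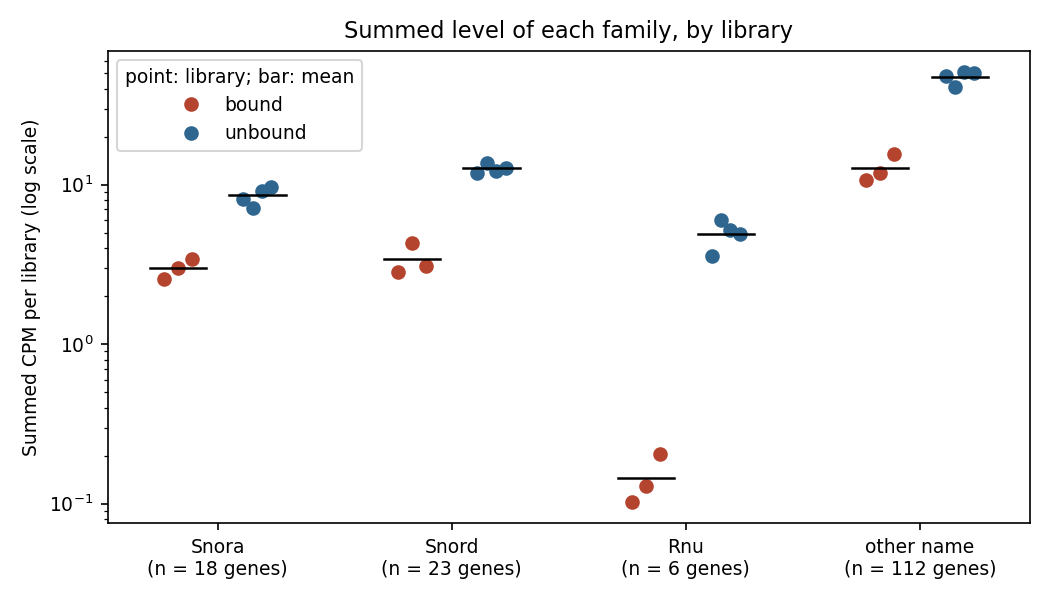
Summed CPM of the members of each family (log axis), with 1 point per library and a bar at the group mean. Bound libraries lie below unbound libraries in each of the 4 groups drawn. Of these the Rnu family, in unbound libraries mostly U3 copies, shows the widest gap, 0.103 to 0.204 CPM against 3.55 to 5.998 CPM.

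By type, 67 of 107 snoRNAs were lower and 2 were higher, with a median log2 fold change of -3.50 (-2.92 with members at 0 set to their bound). Of the 49 snRNAs, 24 were lower and none was higher, with a median of -2.15, and 3 of the 4 scaRNAs were lower (median -5.66, or -2.88 at the bound). In the families, 10 of 18 Snora members were lower and 1 was higher (median -3.55), 16 of 23 Snord members were lower (median -3.47) and 4 of 6 Rnu members were lower (median -8.38, or -5.64 at the bound). The only Scarna member was lower, as were 63 of the 112 members with another name, of which 1 was higher. Differences between types or families were not tested. Fitted values of members with no bound count depend on the prior count of the model and are no bounds.

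**Figure D2:**
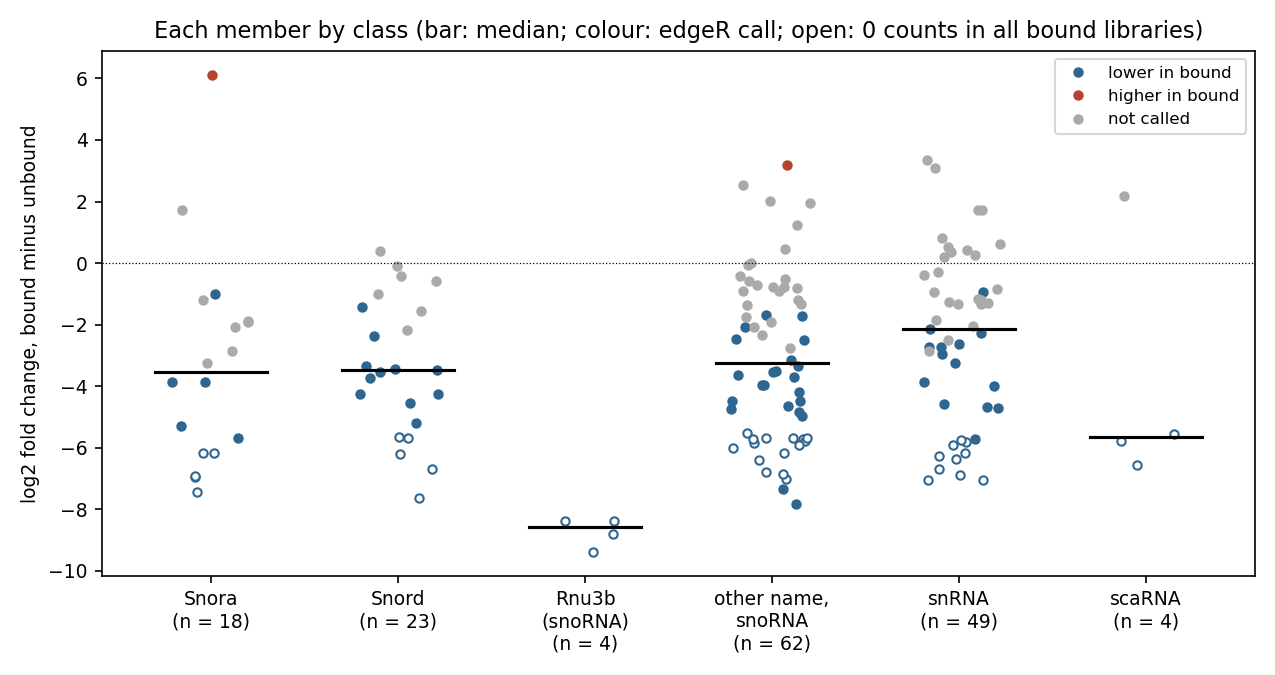
The log2 fold change (bound minus unbound) of each of the 160 members by class, with a bar at the class median and colours for edgeR's call. Most points lie below 0, the 2 members called higher are at 6.12 and 3.19, and open points, which had no bound count, have fitted values that depend on the model.

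The U3 copies and U8, which act in rRNA cutting, had no count in any bound library. Rnu3b2, a copy of U3, which is needed to cut out the small-subunit rRNA, was counted 0, 0 and 0 times in bound and 49, 86, 85 and 70 times in unbound libraries (in order of replicate, as in all such lists). Every bound library was at 0 and every unbound library was well above, so that Rnu3b2 was at least 99.5-fold lower in bound (against a floor of 3 counts over the group, which covers counting error only; adjusted p = 6.11e-06, edgeR). Its copies Rnu3b1, Rnu3b3 and Rnu3b4 were at 0 in all bound libraries too. Rnu3b1 and Rnu3b3 have 1 sequence and Rnu3b2 and Rnu3b4 another, so that reads cannot be assigned to 1 copy with certainty. The 4 copies together had 121, 244, 215 and 193 counts in the unbound libraries and none in the bound ones, at least 265-fold lower. Their host Tex14, a gene of germ cell bridges, was itself near the floor, at 0.349 ± 0.372 against 0.142 ± 0.116 CPM, and did not pass the test (log2 1.27, SE 1.02, adjusted p = 0.308, edgeR). Snord118, or U8, which acts on the large-subunit rRNA, had 0, 0 and 0 bound and 14, 39, 16 and 17 unbound counts, at least 29.5-fold lower (adjusted p = 0.00049, edgeR). Unbound replicate 2 was the highest for U8, and no library of 1 group overlapped the other.

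Snora73a and Snora73b are the 2 copies of U17, a box H/ACA RNA that also acts in rRNA cutting, and both lie in introns of Rcc1, which encodes the exchange factor of Ran. Snora73b also overlaps an exon of a gene on the opposite strand. As the strand setting of the counting is not known, reads of that gene and of Snora73b cannot be told apart. Snora73b had 1, 0 and 0 bound and 8, 17, 15 and 15 unbound counts and was lower (log2 -5.30, SE 1.07, adjusted p = 0.00146, edgeR; unbound over bound 56.6, 95% exact counting interval 9.75 to 2277). Snora73a had 3, 0 and 0 bound and 0, 0, 15 and 17 unbound counts, the last 2 in the UBGS libraries, and did not pass (log2 -3.26, SE 1.67, adjusted p = 0.118). With the UBGS libraries alone it was lower (log2 -4.23, adjusted p = 0.0286, edgeR), and without each library in turn its log2 fold change ran from -6.13 to -2.56 and did not pass. The copies share 98.0% of their letters, so that the split between them is uncertain. Rcc1 was higher in bound (log2 0.57, SE 0.20, adjusted p = 0.033, edgeR).

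**Figure D3:**
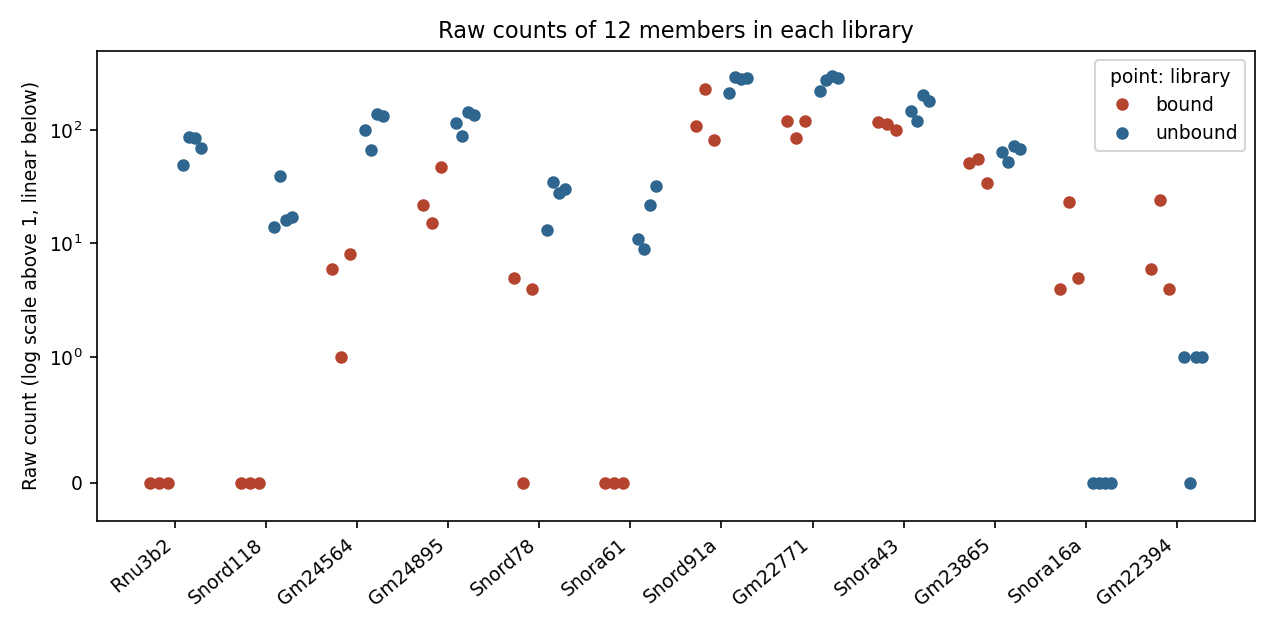
Raw counts of 12 members in each library (log axis above 1, linear below), with bound and unbound libraries side by side. Rnu3b2, Snord118 and Snora61 are at 0 in all 3 bound libraries, Snord91a and Gm22771 are well counted in all 7, and Snora16a is at 0 in all 4 unbound libraries.

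Among box C/D guides, Snord91a lies in an intron of Tsr1, which encodes a ribosome assembly factor. Gm22771, in which the box letters searched for here were not found, lies in an intron of the same gene. Each was well counted in both groups. Snord91a was counted 109, 229 and 81 times in bound and 213, 295, 283 and 285 times in unbound libraries. In CPM the groups were 2.46 ± 1.05 (SD, n = 3) and 6.70 ± 0.346 (n = 4), without overlap, and bound replicate 2 was the nearest to the unbound libraries (log2 -1.44, SE 0.26, adjusted p = 0.00064, edgeR). Gm22771 had 120, 85 and 121 bound and 219, 274, 298 and 287 unbound counts, with bound replicate 2 the lowest of its group (log2 -1.72, SE 0.24, adjusted p = 0.000104). Tsr1 was lower as well, at 48.0 ± 1.90 against 105.7 ± 6.23 CPM (log2 -1.14, SE 0.07, adjusted p = 2.77e-07, edgeR), by somewhat less than either member. The differences of the members from Tsr1 were not tested. Snord104, with 6, 2 and 9 bound and 26, 19, 25 and 21 unbound counts, was lower (log2 -2.36, SE 0.70, adjusted p = 0.0136, edgeR). It lost its call with the UBS or the UBGS libraries alone (adjusted p = 0.0847 and 0.0635). Snord4a, in an intron of the ribosomal protein gene Rpl23a, had 6, 0 and 1 bound and 23, 29, 22 and 20 unbound counts and was lower (log2 -3.72, SE 0.91, adjusted p = 0.00466, edgeR). Snord42b, also in Rpl23a, had 13, 13 and 8 bound and 10, 13, 13 and 8 unbound counts and did not pass (log2 -0.42, SE 0.62, adjusted p = 0.585). These 2 members of 1 host gene thus had different values, and Rpl23a was at 122.4 ± 0.995 against 119.8 ± 3.07 CPM (log2 0.03, adjusted p = 0.687). The difference between the members was not tested.

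Among box H/ACA guides, Snora43 was counted in every library, with 117, 114 and 101 bound and 147, 119, 203 and 180 unbound counts. It was lower in bound, at 2.04 ± 0.235 (SD, n = 3) against 4.07 ± 0.885 CPM (n = 4), without overlap in CPM (log2 -0.997, SE 0.25, adjusted p = 0.00499, edgeR). The call was lost with library totals (adjusted p = 0.0609) and with the UBS libraries alone (adjusted p = 0.0885), and a second gene of that name overlaps it on the same strand with a summed count of 19. Snora34, in an intron of the chromatin regulator gene Kansl2, had 0, 0 and 1 bound and 21, 5, 21 and 26 unbound counts and was lower (adjusted p = 0.00172, edgeR). Its ratio of unbound over bound was 75.2, with a wide 95% counting interval of 13.1 to 3009. Kansl2 was higher in bound, at 23.8 ± 1.89 against 19.4 ± 1.202 CPM (log2 0.29, SE 0.10, adjusted p = 0.0295, edgeR), a call lost with the UBS libraries alone and without bound replicate 2 or 3 or unbound replicate 3 or 4 (adjusted p = 0.0553 to 0.19). Snora7a, in an exon of the ribosomal protein gene Rpl32, had 2, 5 and 21 bound and 20, 18, 18 and 14 unbound counts, and the groups overlapped through bound replicate 3 (log2 -1.20, SE 0.83, adjusted p = 0.239). Without that library it was lower (log2 -2.89, adjusted p = 0.0103, edgeR). Rpl32 was higher in bound, at 161.8 ± 5.58 against 124.6 ± 6.43 CPM (log2 0.38, SE 0.07, adjusted p = 0.000568). Snora31, in an intron of the translationally controlled gene Tpt1, had no bound count and 5, 12, 15 and 22 unbound counts, at least 18.5-fold lower (adjusted p = 0.0017, edgeR), while Tpt1 was higher in bound (log2 0.38, SE 0.06, adjusted p = 0.000294). Snora35, in an intron of the serotonin receptor gene Htr2c, had 0, 0 and 0 bound and 4, 7, 10 and 10 unbound counts, at least 10.6-fold lower (adjusted p = 0.00347, edgeR). Htr2c was at 45.8 ± 11.99 CPM in bound against 32.6 ± 3.68 CPM and was higher (log2 0.49, SE 0.16, adjusted p = 0.0193, edgeR), so that the snoRNA and its host gene went opposite ways. Snora31 and Snora35 met the member rule through unbound counts alone, so that their low bound values depend in part on the rule.

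By the test, 2 members were higher in the bound libraries. Gm23119 and Gm23741, named here after their values were seen, also had every bound library above every unbound one but did not pass (log2 2.17 and 1.73, adjusted p = 0.0844 and 0.0559, edgeR), and both were called higher with library totals. Snora16a, a box H/ACA snoRNA in an exon of Snhg12, had 4, 23 and 5 bound counts and none in any unbound library, at least 10.4-fold higher (adjusted p = 0.00965, edgeR). It met the member rule through bound counts alone, so that its value depends in part on the rule. Gm22394, a snoRNA in an exon of the ion channel gene Trpm2, had 6, 24 and 4 bound and 1, 0, 1 and 1 unbound counts (log2 3.19, SE 1.04, adjusted p = 0.0216; unbound over bound 0.0908, 95% exact counting interval 0.0179 to 0.289). Snora16a and Gm22394 were highest in bound replicate 2, the library with the highest summed microglia markers, 374 CPM, and the part of those cells in this result was not tested. Snora16a was higher without each library in turn, and among the settings in which it was tested it lost its call with the UBS libraries alone (adjusted p = 0.0522). GENCODE M21 annotates another gene of that name over the same bases, which was not analysed here, so that the count of Snora16a is uncertain. Gm22394 lost its call without bound replicate 2 (log2 2.20, adjusted p = 0.117), without unbound replicate 3 or 4 (adjusted p = 0.0556 and 0.0532) and with the UBS or the UBGS libraries alone (adjusted p = 0.114 and 0.0853). Trpm2 was higher in bound, at 20.7 ± 1.79 against 11.2 ± 0.566 CPM (log2 0.88, SE 0.11, adjusted p = 3.81e-05).

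The place of a member in its host gene was compared next. A host gene, a gene of another type whose span holds the whole member on the same strand, was found for 106 members in 69 genes, 53 members in introns only and 53 touching an exon, of which 30 touched only exons of transcripts annotated as retained introns. Of the intronic members 36 were lower (median log2 -4.18, or -3.16 at the bound), of the exonic ones 32 were lower and 2 higher (median -3.47, or -3.15 at the bound), and of the 54 with no host gene 26 were lower (median -1.32). The 69 host genes were spread evenly, with 24 higher, 22 lower, 23 not called and a median log2 of 0.08. Over all genes tested, 28.0% were higher and 29.2% lower. The members lay below their hosts in 93 of 106 cases, and the median difference was -3.30 on the log2 scale. These values include 17 intronic and 13 exonic members with no bound count, which met the member rule through unbound counts alone. Their differences from the host therefore depend in part on the rule and on the model. Of the 68 lower members with a host, 46 had a host gene that was not lower and 13 had one that was higher. Across the 106 members, which share host genes and libraries, member and host fold changes had a Spearman's rho of 0.04 and a Pearson's r of 0.02, given as a description.

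**Figure D4:**
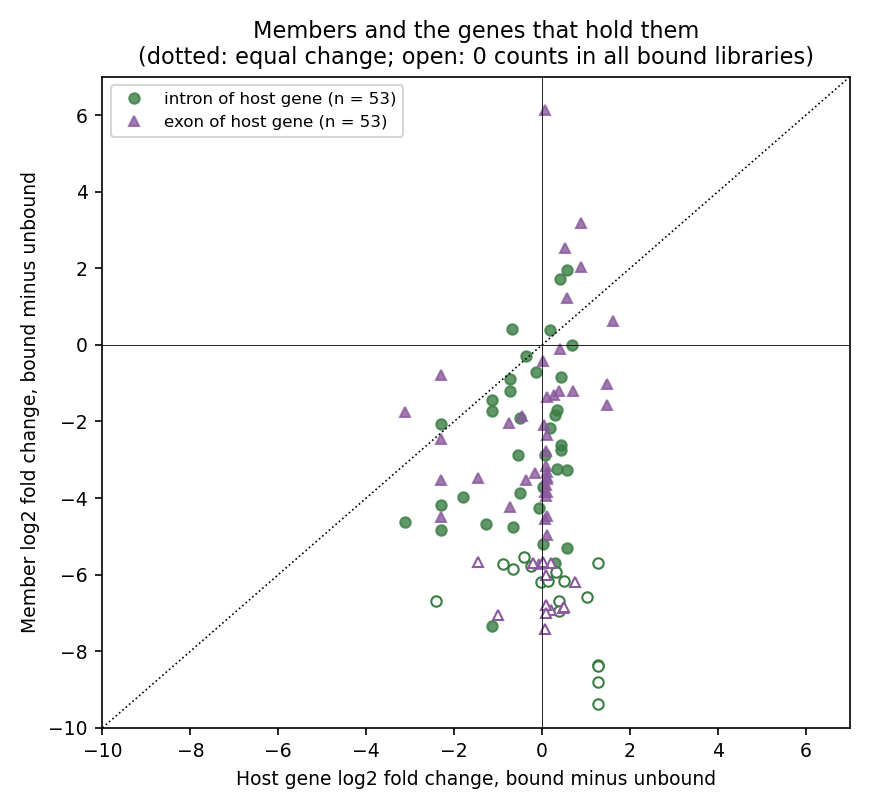
Log2 fold change of each of the 106 members with a host gene against that of its host, by place in the host, with open symbols for members with no bound count and a dotted line at equal change. Host values run from -3.12 to 1.62 and member values from -9.38 to 6.12, and 93 points lie below the line.

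In the host genes with 4 or more members, most members were lower whether or not the host was. Gas5, a noncoding RNA gene whose spliced RNA is known mainly as a carrier of box C/D snoRNAs, holds 7 members, of which 5 were lower (median log2 -3.46), while Gas5 was at 61.3 ± 2.41 (bound, n = 3) against 56.8 ± 13.0 CPM (unbound, n = 4; log2 0.11, SE 0.16, adjusted p = 0.579, edgeR). Snord78 in Gas5 had 5, 0 and 4 bound and 13, 35, 28 and 30 unbound counts (log2 -3.46, SE 0.86, adjusted p = 0.00535). Gm23212 had 5, 0 and 1 bound and 23, 33, 44 and 40 unbound counts (log2 -4.48, SE 0.83, adjusted p = 0.000799), and Gm26224 had 1, 0 and 0 against 12, 6, 10 and 14 (adjusted p = 0.00318). In each of these 3 the groups did not overlap. Snord78 lost its call with the UBS libraries alone (adjusted p = 0.0558).

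Taf1d, which encodes a factor of RNA polymerase I transcription, holds 7 members, of which 6 were lower (median -3.95, or -3.65 at the bound), and was itself at 4.32 ± 1.01 against 4.10 ± 0.0560 CPM (log2 0.08, SE 0.20, adjusted p = 0.754). Snhg12, a noncoding host gene, holds 4 members, and its level was 15.2 ± 1.05 against 14.5 ± 0.712 CPM (log2 0.07, SE 0.11, adjusted p = 0.618). Besides Snora16a, which rose, its members Snora61, Snord99 and Snora44 were lower. Snora61 had 0, 0 and 0 bound and 11, 9, 22 and 32 unbound counts, at least 25.4-fold lower (adjusted p = 0.000962, edgeR). Snord99 had 0, 0 and 2 bound and 5, 15, 15 and 24 unbound counts (adjusted p = 0.00694), and Snora44 had 1, 0 and 0 against 3, 7, 9 and 1 (adjusted p = 0.0264). These members of Snhg12 were low in bound libraries in which Snora16a was counted, and the difference within the host was not tested. Snord99 lost its call with the UBS libraries alone (adjusted p = 0.0715), and Snora44 lost it without bound replicate 2 or 3, without unbound replicate 2 or 3 and with the UBS or the UBGS libraries alone (adjusted p = 0.0553 to 0.0816). With library totals Gas5, Taf1d and Snhg12 were called higher (log2 0.53, 0.52 and 0.50), by little more than the shift of all genes.

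**Figure D5:**
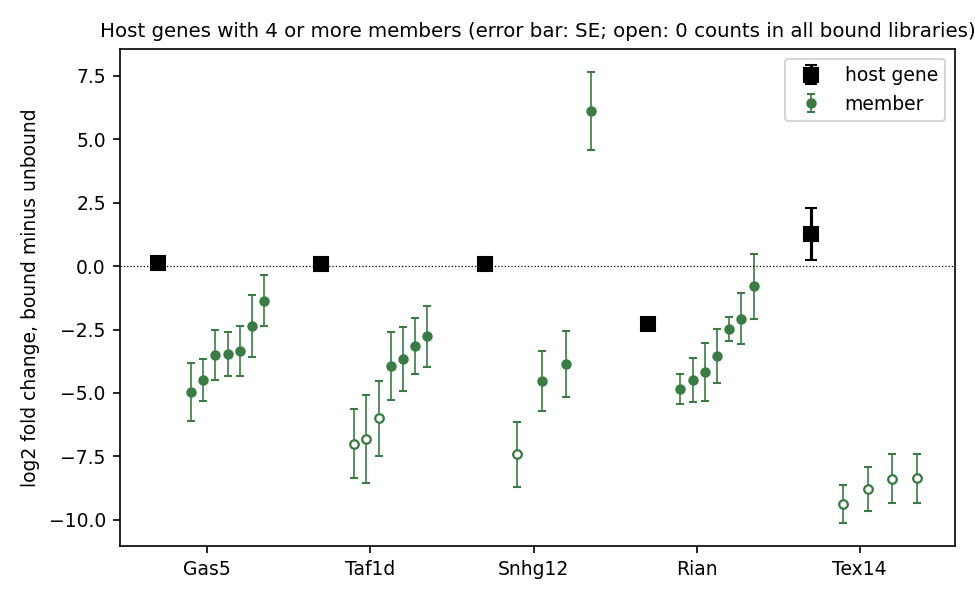
Log2 fold change with its SE for 5 host genes (squares) and their 29 members (circles, open where no bound count was present). The members of Gas5, Taf1d and Tex14 lie below their hosts, 1 member of Snhg12 lies far above, and the hosts Gas5, Taf1d and Snhg12 lie near 0.

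Rian, an imprinted noncoding gene that is strong in neurons, was lower itself, at 52.4 ± 3.80 against 258.5 ± 61.3 CPM (log2 -2.30, SE 0.16, adjusted p = 4.5e-07, edgeR). Of its 7 members, box C/D snoRNAs mostly without a known rRNA target, 5 were lower (median -3.53) and 5 lay below Rian. Gm24564 had 6, 1 and 8 bound and 101, 67, 139 and 134 unbound counts (log2 -4.84, SE 0.59, adjusted p = 3.75e-05). Gm24895 had 22, 15 and 47 against 115, 89, 145 and 135 counts (log2 -2.47, SE 0.48, adjusted p = 0.00109), close to the change of Rian. In both the groups did not overlap, and bound replicate 3 was the highest bound library. The same library held all bound counts of AF357425, which had 0, 0 and 14 against 40, 38, 62 and 43 counts and was lower (log2 -3.53, SE 1.07, adjusted p = 0.015), though not with the UBS or the UBGS libraries alone (adjusted p = 0.096 and 0.0724). DQ267100 had 0, 0 and 10 bound and 4, 4, 7 and 5 unbound counts and did not pass (log2 -0.79, SE 1.27, adjusted p = 0.62). Without bound replicate 3 it was lower (adjusted p = 0.0124, edgeR).

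The imprinted Snord arrays of the Snrpn locus were hardly counted. The table holds 17 genes named Snord116, with a highest summed count of 6, so that none is a member, and no gene by the symbol Snord115. Snord64 and Snord107 of the same locus are members and lie in exons of Gm38393, which was higher in bound (log2 1.48, SE 0.06, adjusted p = 1.3e-08, edgeR). Snord64 had 7, 11 and 2 bound and 15, 18, 14 and 8 unbound counts and did not pass, though its groups did not overlap in CPM (log2 -1.56, SE 0.73, adjusted p = 0.0892). Snord107 had 4, 7 and 1 against 5, 8, 7 and 3 counts and did not pass either (log2 -1.02, SE 0.85, adjusted p = 0.33).

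Of the members with other names, 63 were lower, Gm22478 and Gm25776 among them. Gm22478, a snoRNA, lies opposite to Snrnp70, the gene of a U1 snRNP protein, but to no exon of it. It had 0, 0 and 1 bound and 72, 97, 78 and 71 unbound counts (log2 -7.81, SE 0.68, adjusted p = 2.56e-06, edgeR). Its ratio of unbound over bound was 327, with a 95% exact counting interval of 58.3 to 12971. Gm25776, in an intron of the transcription factor gene Gtf2a1, had 0, 0 and 1 bound and 87, 34, 47 and 52 unbound counts (adjusted p = 3.9e-05, edgeR), with a ratio of 226 and a counting interval of 40.2 to 8986. In both, 1 count in bound replicate 3 stood against 34 or more in each unbound library. Gtf2a1 was lower by less (log2 -1.14, SE 0.08, adjusted p = 3.97e-07). No source used here gives the strand setting of the counting, so that reads of Gm22478 and of introns of Snrnp70 cannot be told apart.

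Among the snRNA members, the best blastn match to a named snRNA placed 27 members with U6, 10 with U2, 6 with U1 and 3 with U7. Some matches were loose, such as those of Gm23628 to U2 (68.6% of letters) and Gm22814 to U6 (73.0%). A class here means likeness in sequence only. Lower in bound were 15 of 27 U6, 3 of 10 U2, 2 of 6 U1 and 1 of 3 U7 members. Of all genes tested 29.2% were lower, and the shares of U2 (30.0%), U1 (33.3%) and U7 (33.3%) were near this. Members of these classes that were not called are not shown to be unchanged. Gm22392, which matched U6 at 97.2% of letters over its whole length and touches a retained-intron exon of Eny2, had 2, 0 and 0 bound and 34, 29, 28 and 31 unbound counts (log2 -5.72, SE 0.90, adjusted p = 0.00025; unbound over bound 62.8, 95% exact counting interval 17.02 to 524). Gm25600, a looser match to a U6 copy (74.5% of letters), had 13, 13 and 7 bound and 45, 31, 40 and 37 unbound counts, without overlap (log2 -2.28, SE 0.48, adjusted p = 0.00175). Gm23865, a U6-like gene opposite to exons of Odf2, had 51, 56 and 34 against 64, 52, 73 and 68 counts, or 0.848 ± 0.0667 (SD, n = 3) against 1.62 ± 0.284 CPM (n = 4), without overlap in CPM (log2 -0.93, SE 0.32, adjusted p = 0.0262). Its call was lost without bound replicate 3, without unbound replicate 1, 3 or 4, with the UBS or the UBGS libraries alone and with library totals (log2 -0.49, adjusted p = 0.197).

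The 8 U2 copies with at least 95% identity summed to 19, 91 and 2 bound and 29, 145, 83 and 70 unbound counts. They varied widely within each group, at 0.610 ± 0.748 (bound, SD, n = 3) against 1.98 ± 1.05 CPM (unbound, n = 4), and the groups overlapped, bound replicate 2 lying above unbound replicate 1. Only 2 of the 8 were lower. Rnu2-10 had 1, 6 and 0 bound and 0, 8, 3 and 2 unbound counts (log2 -0.93, SE 1.27, adjusted p = 0.556). Gm23971 and Gm24950 share its sequence and had identical counts to each other in all 7 libraries, so that reads cannot be assigned to 1 copy. Rnu7, the U7 RNA that acts on the ends of histone messages, had 5, 2 and 9 bound and 0, 5, 3 and 3 unbound counts and did not pass (log2 0.63, SE 1.04, adjusted p = 0.629).

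Scarna3a, which lies in an intron of the ubiquitin ligase gene Cop1, had 0, 0 and 0 bound and 5, 0, 11 and 7 unbound counts, at least 7.89-fold lower (adjusted p = 0.022, edgeR). The groups met at 0 through unbound replicate 2, and the call was lost without unbound replicate 3 (adjusted p = 0.056) and with the UBS libraries alone (adjusted p = 0.147). Cop1 was lower (log2 -0.24, SE 0.08, adjusted p = 0.0175), but with library totals its value was 0.19 (adjusted p = 0.0833). The call of Cop1 was also lost with the UBS libraries alone and without bound replicate 3 or unbound replicate 3 or 4 (adjusted p = 0.0587 to 0.197).

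The members were also grouped by their own letters. The C box letters TGATG in the first 25 bases with the D box letters CTGA in the last 25 were found in 39 of 111 snoRNA and scaRNA members (35.1%), against 23.6% of all annotated ones and 0.275% of the first 114 bases of other transcripts (0.289% on the reverse strand). The H box letters ANANNA in the middle of 3 equal stretches with ACA in the last 8 bases were found in 48 (43.2%), against 40.1% and 3.50% (3.46% on the reverse strand). Both sets of letters were found in 2 members. With the C and D letters alone, 26 of 37 members were lower (median log2 -3.47), and with the H and ACA letters alone, 26 of 46 were lower and 1 was higher (median -3.46). Of the members in which neither set was found in these windows, 16 of 26 were lower (median -3.77). The medians of these groups were near each other. The last group is not one of RNAs without boxes. It holds Rnu3b2, whose C box letters start at base 157, outside the first 25. Those of Snord118 start at base 53 and were missed in the same way.

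The genes of the proteins that bind these RNAs had other values. For comparison, 28.0% of all genes tested were called higher and 29.2% lower. All 4 core proteins of box C/D particles (Fbl, Nop56, Nop58 and Snu13) were higher in bound, with a median log2 of 0.62, and Snu13 rose by 0.89 (SE 0.07, adjusted p = 9.93e-07, edgeR). Of the 4 box H/ACA core proteins 3 were higher, led by Nop10 (log2 2.04, SE 0.09, adjusted p = 1.43e-08), while Dkc1, the pseudouridine synthase, was at 0.01 (adjusted p = 0.956). Of 14 assembly and Cajal body factors 6 were higher and 1, the cap methylase Tgs1, was lower (log2 -0.48, adjusted p = 0.0204). Of 40 spliceosomal snRNP proteins 24 were higher and 7 lower (median 0.64). In the SMN complex, which loads the Sm ring on snRNAs, 1 of 9 was higher (Smn1, log2 0.87, adjusted p = 0.00137) and 1 lower (Strap, log2 -0.33, adjusted p = 0.00107).

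Other short structured RNAs that are no members were lower in bound as well, in 4 of the 5 that could be tested. Of these 4, Rn7s1 and Rn7s2 had the same bound counts and are no separate results. Among those with too few counts to test, Rny1 had 2, 3 and 4 bound and 0, 0, 0 and 2 unbound counts. Rny3 had 8, 2 and 3 against 1, 1, 0 and 1, while Terc and Vaultrc5 had no bound count. Rn7sk, the RNA that restrains the elongation factor P-TEFb, had 72, 46 and 24 bound and 852, 773, 593 and 604 unbound counts (log2 -4.40, SE 0.31, adjusted p = 4.58e-07, edgeR). Rpph1, the RNA of RNase P, had 9, 11 and 7 against 163, 223, 119 and 97 counts (log2 -4.51, SE 0.41, adjusted p = 3.36e-06). Rn7s1 and Rn7s2, the RNA of the signal recognition particle in near-identical copies, were lower by 3.76 and 3.79 on the log2 scale (adjusted p = 0.000574 and 0.000546), with bound replicate 1 the highest of its group. Rmrp, at 9, 1 and 3 against 9, 6, 8 and 16 counts, did not pass (log2 -1.60, SE 0.89, adjusted p = 0.145). Of 15 genes listed as noncoding snoRNA hosts with a row under their symbol, 2 were higher (Snhg3 and Snhg15, log2 0.91 and 1.38) and 4 lower, among them Meg3 and Snhg11 (log2 -3.56 and -3.12). GENCODE M21 types Snhg11 as protein-coding, and several of the listed genes, such as Meg3, held no member here. Over all genes tested the shares were 28.0% higher and 29.2% lower.

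The UBS and UBGS libraries of the unbound group were compared for the 159 members that could be tested among them. By edgeR none was called at an adjusted p of 0.05, 10 (6.29%) had an unadjusted p under 0.05, and DESeq2 called none. Over all genes 0.209% were called and 15.7% had an unadjusted p under 0.05. Without unbound replicate 1 the test called 5 members higher and 16 lower in UBS, and without unbound replicate 2 it called 9 and 13, in fits where the lone UBS library is assumed to vary like the others. With the UBS libraries alone against the bound ones, 49 members were lower and none was higher, and with the UBGS libraries alone, 70 were lower and 1 was higher.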

How the data were processed

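The authors deposited raw counts, whole numbers of reads for each gene. The tools were STAR 2.5.3a and HTSeq, whose version is not stated, on build mm10, per the submitters' processing notes. Of the annotation release, the strand setting, treatment of reads with several matches, read length, the library kit and any size selection, the sources used here say nothing, so counts of copies, overlapping genes and antisense partners are uncertain. IDs were matched to GENCODE M21, which named 37607 genes.

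Genes with a summed count of at least 20 were tested with edgeR 4.0.16 (TMM, robust quasi-likelihood, Benjamini-Hochberg) in R 4.3.3, with no covariate. On simulated data with low summed counts, from 20 up, the test recovered 0 of 50 changes of log2 1. It recovered 9 of 50 changes of log2 2 there. Most members lie in this low range. With high summed counts it recovered 33 of 50 and 50 of 50. It made 9 false calls among 22111 genes. DESeq2 1.42.0 and other scalings, filters and subsets of libraries were alternatives. Intervals are exact and binomial, and cover counting error only.

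Members and lists were chosen with earlier results of these data known. Named members are those with the highest mean CPM in each family, the largest changes at 1 CPM or more in each type without overlap, and hosts of 4 or more members. The others named (Snord118, Snora16a, Gm22394, Snora31, Snora35, Snora73a, Snora73b, AF357425, DQ267100, Snord42b, Snord64, Snord78, Snord99, Snord107, Snora44, Gm22392, Gm25600, Gm25776, Rnu2-10, Rnu7, and single members of Gas5 and U2 copies) were chosen after their values were seen. Nearest named RNAs were found with blastn 2.17.0.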

Additional observations from a re-analysis of the deposited data

Results flagged for a closer look

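In the 4 unbound libraries, 1 library stood apart from the other 3 for 4 of 56 genes checked. Chance alone gives such a gap in about 1 of 20 groups. Gm24895, a Rian member, was at 2.08 CPM in unbound replicate 2 and between 3.33 and 3.41 CPM in the other 3. Snord118 (U8) was at 0.910 CPM in unbound replicate 2 and between 0.376 and 0.419 CPM in the others. Snord42b was at 0.197 CPM in unbound replicate 4, against 0.293 to 0.305 CPM. The host gene Taf1d was at 4.02 CPM in unbound replicate 3, against 4.12 to 4.13 CPM.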

How the results depend on the processing

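Of the 94 lower members, 40 were lower in every one of the 15 settings in which they were tested, 68 were lower without each library in turn, and none turned to higher. Relative log expression factors, and leaving out mitochondria-encoded genes and Gm42418, kept 94, DESeq2 kept 92 and testing without a filter kept 91.
With library totals, 4 members were higher (by type 1 snRNA and 1 scaRNA among them, by family 3 with another name). Medians were then -2.65 over all members, -3.11 for snoRNA, -1.72 for snRNA, -3.17 for Snora, -3.07 for Snord and -2.26 for other names. Log2 ratios of summed CPM were -1.51 for all members, -1.58 for snoRNA, -1.24 for snRNA, -1.09 for Snora, -1.46 for Snord and -1.47 for other names, and Cop1 turned to 0.19.
With DESeq2, medians were -3.87 for Snora and -3.76 for Snord, and the median difference between member and host was -3.50.
With filterByExpr, which tested 60 members, 44 were lower and 1, Gm23741, was higher: 30 snoRNAs, 14 snRNAs and 0 scaRNAs were lower, 0 snoRNAs and 1 snRNA higher. By family 5 Snora (0 higher), 7 Snord, 0 Scarna and 28 others were lower, with medians of -2.73 over all, -2.72 for snRNA and -2.92 for Snord. Fewer members were tested there.
With UBS libraries only, 49 were lower and 0 higher: 37 snoRNAs (0 higher), 11 snRNAs and 1 scaRNA, and by family 8 Snord, 0 Scarna and 30 others, with 0 Snora and 0 others higher. Medians were -2.67 over all, -1.62 for snRNA, -5.11 for scaRNA, -2.98 for Snora and -2.36 for others. With UBGS libraries only, 1 member, a snoRNA, was higher and 0 of other name, 15 snRNAs were lower, and medians were -2.36 for snRNA and -4.02 for Snora. Both use fewer samples.
Leaving out each library in turn gave 1 to 4 members higher (snoRNA 1 to 3, snRNA 0 to 1, scaRNA 0 to 1, Snora 1 to 2, other names 0 to 3) and 0 to 1 Scarna lower. Medians ran from -3.85 to -2.85 over all, -4.32 to -3.12 for snoRNA, -2.72 to -1.83 for snRNA, -5.29 to -3.18 for Snora, -3.91 to -2.95 for Snord, -3.61 to -2.53 for other names, and -3.94 to -3.11 for member minus host. UBS against UBGS called 0 to 9 members higher and 0 to 16 lower. Where no construction is named, the cause was not tested.
No paired analysis was possible because the labels give no pairing, animal or batch that links bound and unbound libraries. A median of 42 counts per member limits what could be called.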
